A study of Mus musculus with 10 samples.

Results

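The EGF family ligands and the Erbb receptors were followed across 5 cell populations of the growing mouse hair follicle and its dermis. The genes considered were 3 receptors (Egfr, Erbb2 and Erbb3) and 6 ligands (Areg, Ereg, Hbegf, Tgfa, Btc and Nrg1), and each probe-set that the array annotation gives to just 1 of these genes was taken. 7 of the 9 genes had such a probe-set, out of 12393 named genes on the array, and they had 16 probe-sets between them, 8 for receptors and 8 for ligands. Areg and Nrg1 were not analysed here, because the annotation used here gives no probe-set to either of them.

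All cells came from the back skin of 4 day old mice that carried both the Lef1-RFP and the K14-H2BGFP transgene, so that every population, also those with no fluorescence, shares this genotype. RFP was driven by a fragment of the human Lef1 promoter, and a histone fused to GFP was driven by the keratin 14 promoter, which is active in skin epithelium. The 5 populations were the matrix (Mx, low GFP and no RFP), the outer root sheath (ORS, high GFP and no RFP), the dermal papilla (DP, high RFP without GFP, CD34, CD45 or CD117), a dermal fraction enriched in fibroblasts (DF, the same with no RFP) and melanocytes (Mc, high RFP, no GFP, CD117 positive). Each population was hybridised to 2 MOE430A arrays, 10 in all, and the study's methods describe the digestion of 5 back skins and call the replicates independent datasets. Strain and sex are not given in the sources used here.

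The Erbb receptors are tyrosine kinases that sit in the cell membrane and act in pairs. Egfr binds the EGF-like ligands directly, Erbb2 has no known ligand and serves as the partner of the others, and Erbb3 binds neuregulins but has little kinase activity of its own, so that it signals mainly with Erbb2. The ligands are made as membrane proteins and released by cleavage, and the active receptors switch on the Ras-MAP kinase relay and its own inhibitors. In skin, this family is known for its part in keratinocyte growth and in the shape and cycling of hair.

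The 2 receptor genes with the clearest differences between populations lie on the same mouse chromosome. In the RefSeq table of build GRCm38.p6, Egfr spans chromosome 11, 16752203 to 16913907, and Erbb2 spans chromosome 11, 98412484 to 98437716. Their upstream windows, 250 bases that end just before the annotated start of each gene, are shown because the 2 genes differ in where they are high and in the promoter elements that these windows hold. Capitals mark the letters of a GC box (GGGCGG or its reverse, CCGCCC) or of a CCAAT box (CCAAT or its reverse, ATTGG). Both windows are on the plus strand, at chr11:16751953-16752202 for Egfr and at chr11:98412234-98412483 for Erbb2.
Egfr: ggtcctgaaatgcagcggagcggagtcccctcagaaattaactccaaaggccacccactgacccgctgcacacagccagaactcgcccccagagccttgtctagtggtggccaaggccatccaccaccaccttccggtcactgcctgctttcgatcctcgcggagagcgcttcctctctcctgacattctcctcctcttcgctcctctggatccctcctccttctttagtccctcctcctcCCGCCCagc
Erbb2: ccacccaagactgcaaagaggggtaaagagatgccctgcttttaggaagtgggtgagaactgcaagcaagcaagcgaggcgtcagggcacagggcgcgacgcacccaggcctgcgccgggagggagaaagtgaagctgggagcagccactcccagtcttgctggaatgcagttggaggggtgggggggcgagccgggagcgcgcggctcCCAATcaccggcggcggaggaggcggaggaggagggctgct
The Egfr window held 1 GC box and no CCAAT box, and the Erbb2 window held 1 CCAAT box and no GC box. Neither window held a TATA box (TATAAA or its reverse, TTTATA), and no letters of one motif were shared with another. Of 32851 upstream windows of this length in the table, 32.7% held a GC box, 33.8% a CCAAT box and 12.4% a TATA box on either strand. The GC content was 60.8% for Egfr and 66.0% for Erbb2, against a median of 52.4% over all windows. These matches describe letters only, and no binding was measured.

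The deposited value of a probe-set is its MAS 5.0 signal, a brightness on a linear scale. The median signal of an array ran from 49.9 to 90.9, and the replicates of a population correlated with r from 0.971 to 0.982 over probe-sets. Signals of different probe-sets are not on a common scale, so each is compared with itself across populations. The labels were checked against marker genes: all 7 ORS markers reached 200 on both ORS arrays, all 8 DP markers on both DP arrays and all 7 measured melanocyte markers on both Mc arrays, whereas 5 of 8 matrix markers did so on the Mx arrays (Foxn1, Shh and Wnt10b did not). The dermal fibroblast markers did not mark DF alone: 4 of 6 reached 200 on both DF arrays, but 5 did in DP and 3 each in Mx, ORS and Mc, with decorin (Dcn) highest in Mx (4725 and 3052 against 1326 and 1914 in DF) and lumican (Lum) in DP (328 and 307 against 148 and 158). None of 6 immune cell markers reached 200 in any population. The summed signal of the melanocyte markers was 30140 and 31619 in Mc, but also 23858 and 15055 in DP and 12710 and 3986 in DF, against at most 876 in Mx and ORS. Markers of mural cells had a summed signal of 18996 and 20257 in DF, 3280 and 4352 in ORS, and 2838 and 4958 in DP. DF also held markers of endothelial cells (summed signal 3438 and 2482), Schwann cells (4895 and 3570) and red cells (3655 and 4528). The markers of a list did not all share this. In DF, 2 of 5 Schwann cell markers reached 200 on both arrays, Mbp and Pmp22, which made most of that sum. Of 3 red cell markers 1 did, Alas2 at 3462 and 4266, while Hba-a1 read 31.9 and 27.7, below its 44.5 and 47.2 in DP. These sums stand beside the results they touch below, and in such bulk samples fewer cells of a type and less RNA per cell cannot be told apart.

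The test took a probe-set when 1 or more populations had both replicates at a signal of 200 or above, which 8054 of 22626 probe-sets (35.6%) and 5 of the 16 probe-sets of these genes (31.2%) did. Differences are given on the scale of log2(signal + 50), which understates the change of dim probe-sets, with the standard error (SE) of the limma model, and a difference is called when its Benjamini-Hochberg adjusted p over all tested probe-sets is under 0.05. Of the 5 tested probe-sets, 4 differed somewhere among the 5 populations, beside 70.4% of all tested probe-sets. A probe-set that passed only through the populations where it is bright was more likely to differ, so this count supports nothing by itself. Egfr 1424932_at passed through Mx and ORS, Erbb2 through Mx, ORS and DP, and Hbegf through ORS and DF, while Erbb3 passed in all 5 populations.

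**Figure D1:**
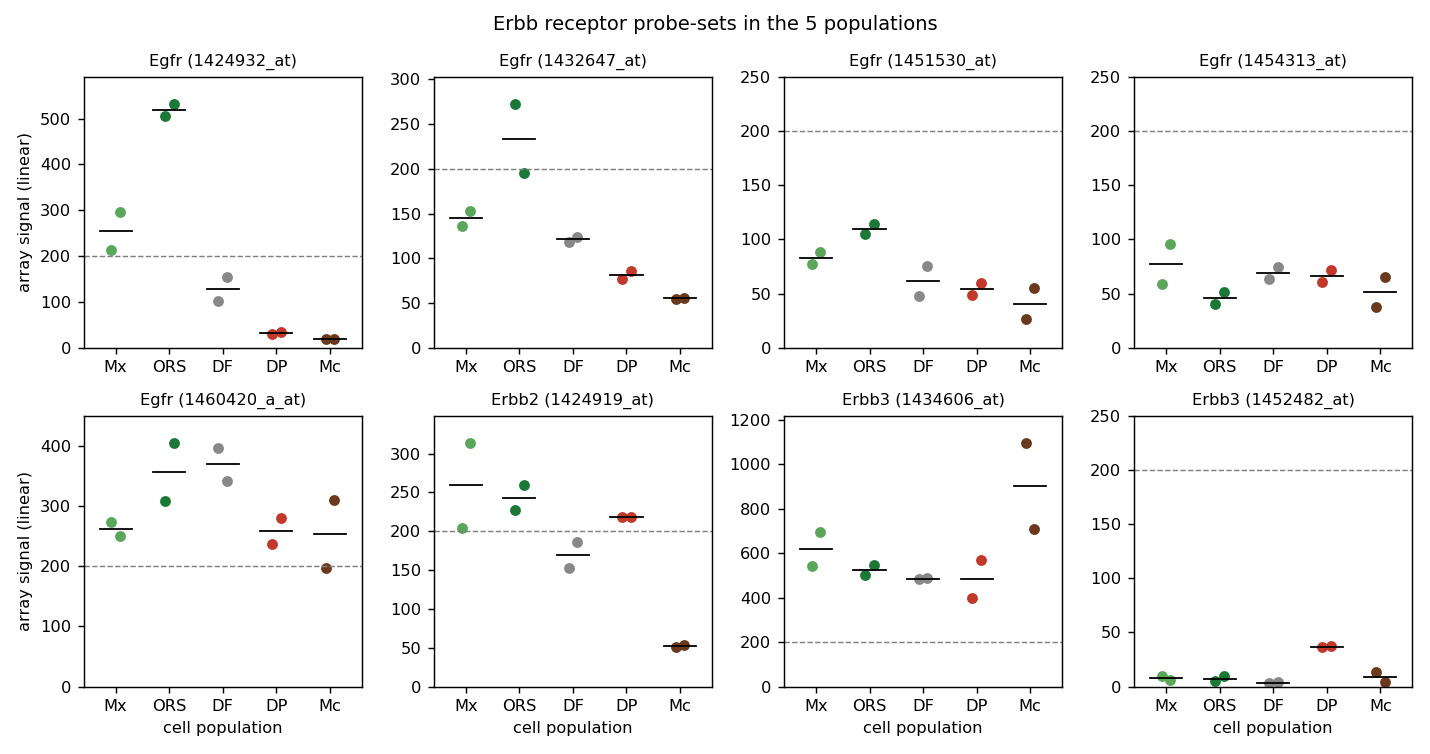
Signal of the 8 receptor probe-sets on a linear scale (vertical axes, each with its own range from 0) in the 5 populations (horizontal axes). Points are the 2 arrays of a population, black lines their mean and the dashed line a signal of 200. Egfr 1424932_at is brightest in ORS at 506 and 532 and dimmest in Mc, Erbb2 is at 51.0 and 54.0 in Mc and at least 153 elsewhere, and Erbb3 1434606_at is above 200 on all 10 arrays.

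Egfr, the receptor for most EGF-like ligands, was highest in the ORS by the probe-set with the widest range of all 16. Egfr 1424932_at read 506 and 532 in ORS, 212 and 297 in Mx, 102 and 154 in DF, 29.3 and 35.2 in DP, and 18.7 and 19.5 in Mc. No 2 populations overlapped, and the mean fell 27.2-fold from ORS to Mc. The signal was higher in the 2 epithelial populations than in DF and DP by 1.78 on the log2 scale (SE 0.14, adjusted p = 3.57e-07), a contrast in which 60.8% of all tested probe-sets were called. The probe-set passed the bound only through these 2 populations, so this difference is in part a condition of being tested. In a limma fit with no filter on signal it was also 1.78 (SE 0.12, adjusted p = 3.51e-05), where 40.8% of all probe-sets were called. Within chip lot A, the lot that 6 of the 10 arrays share according to the array experiment files, the same difference was 1.90.

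Neighbours in the order of the Egfr levels differed except at its low end. ORS was above Mx by 0.92 (SE 0.20, adjusted p = 0.00633), Mx was above DF by 0.78 (SE 0.20, adjusted p = 0.00666) and DF was above DP by 1.10 (SE 0.20, adjusted p = 0.00189). The difference between DP and Mc was 0.25 (SE 0.20, adjusted p = 0.393) and was not called. Among all tested probe-sets, 19.4% were called between Mx and ORS, 52.2% between Mx and DF, 19.0% between DP and DF and 30.5% between DP and Mc. The step from Mx to ORS is the least certain, as it missed the threshold without the first Mx array (adjusted p = 0.0534) or without the second ORS array (adjusted p = 0.0512).

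DF, in the middle of this order, also carried some epithelial transcript. The summed signal of 4 epithelial markers was 742 and 1649 on the DF arrays, 489 and 405 in DP, 620 and 677 in Mc, and 5234 to 15999 in Mx and ORS. Most of the Mc sum was Cdh1 (473 and 525), while keratin 5, keratin 14 and Epcam read 5.7 to 98.8 there. In DF, keratin 5 and keratin 14 reached 200 on both arrays, while Epcam read 66.0 and 83.8 and Cdh1 153 and 218. The DF array with the higher epithelial sum was also the one with the higher Egfr signal, 154 against 102. Keratin 5, made by basal keratinocytes, read 304 and 845 in DF, and 155 and 162 in DP. The part of these cells in the DF signal of Egfr was not tested.

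The other Egfr probe-sets split into those that shared this order and those that did not. Egfr 1432647_at read 136 and 153 in Mx, 272 and 195 in ORS, 119 and 123 in DF, 76.9 and 85.4 in DP, and 54.7 and 56.1 in Mc, the same order as 1424932_at. It stayed just outside the test, since 1 ORS array was at 272 and the other at 195. Egfr 1451530_at kept the order at a lower level, with 105 and 114 in ORS and 26.5 and 54.9 in Mc. In a fit of all 22626 probe-sets with no filter on signal, both were higher in the epithelial populations, by 0.64 (SE 0.10, adjusted p = 0.00151) and 0.44 (SE 0.13, adjusted p = 0.0265), where 40.8% of all probe-sets were called.

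The brightest Egfr probe-set did not share the order. Egfr 1460420_a_at read 274 and 250 in Mx, 308 and 405 in ORS, 396 and 342 in DF, 237 and 280 in DP, and 196 and 310 in Mc. The ranges of DF and ORS overlapped, as did those of Mx, DP and Mc, and no difference among the 5 was called (adjusted p = 0.136). Its difference between the epithelial populations and DF and DP was -0.02 (SE 0.15), and that between Mc and the rest was -0.26 (SE 0.17). Egfr 1454313_at stayed between 37.2 and 95.4, with ORS lowest at 40.7 and 51.3.

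By mean signal, 3 of the 5 Egfr probe-sets were highest in ORS and 4 were lowest in Mc. Over the 10 arrays, Egfr 1424932_at correlated with 1432647_at at r = 0.96 and with 1451530_at at r = 0.90, but with 1460420_a_at at r = 0.47 and with 1454313_at at r = -0.02. These are descriptions over arrays that share their populations. Which Egfr transcripts each probe-set detects was not analysed here, and the difference between probe-sets was not tested, so the level of Egfr in DF, DP and Mc depends on which probe-set is read.

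Erbb2, the partner of the other receptors, was at similar levels in 4 populations and low in Mc. Its only probe-set, 1424919_at, read 204 and 314 in Mx, 227 and 260 in ORS, 218 and 218 in DP, 153 and 186 in DF, and 51.0 and 54.0 in Mc. Both Mc arrays lay below every other array, and Mc was lower than the mean of the other 4 populations by 1.39 on the log2 scale (a fitted fold of 2.62, SE 0.16, adjusted p = 1.48e-05). In that contrast 44.4% of all tested probe-sets were called. Within chip lot A the difference was -1.37.

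Among the other 4 populations no difference in Erbb2 was called, although both DF arrays lay below all Mx, ORS and DP arrays. The widest were those of Mx over DF (0.47, SE 0.20, adjusted p = 0.0653) and of ORS over DF (0.42, SE 0.20, adjusted p = 0.128). Neighbours in the order Mx, ORS, DP, DF gave differences of 0.05 between Mx and ORS (SE 0.20, adjusted p = 0.896), 0.13 between ORS and DP (SE 0.20, adjusted p = 0.642) and 0.29 between DP and DF (SE 0.20, adjusted p = 0.374). DF, the lowest of the 4, was above Mc by 1.10 (SE 0.20, adjusted p = 0.000778), with 36.3% of all tested probe-sets called. The epithelial populations stood above DF and DP by 0.30 (SE 0.14, adjusted p = 0.0843), which passed the threshold when the arrays were scaled in another way (0.45 after quantile normalization, adjusted p = 0.00697, and 0.38 after rescaling to a common trimmed mean, adjusted p = 0.0278).

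Erbb3, the neuregulin receptor of the 3, ran the other way and was highest in Mc. Erbb3 1434606_at read 1096.5 and 711 in Mc, 544 and 694 in Mx, 501 and 547 in ORS, 483 and 488 in DF, and 397 and 569 in DP. Both Mc arrays lay above every other array, and every population was above 200. Mc was higher than the mean of the other 4 by 0.71 (a fitted fold of 1.63, SE 0.19, adjusted p = 0.00752), where 16% of all tested probe-sets were higher and 28.5% lower. That call rests on the first Mc array: without it the difference was 0.41 (adjusted p = 0.201), and within chip lot A, which holds that array, it was 1.08.

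Between single populations, Mc exceeded ORS by 0.70 (SE 0.23, adjusted p = 0.0288), DF by 0.80 (SE 0.23, adjusted p = 0.0163) and DP by 0.83 (SE 0.23, adjusted p = 0.0167), but Mx by 0.49 (SE 0.23, adjusted p = 0.0994). All tested probe-sets were called at 41.0% between ORS and Mc and at 50% between Mx and Mc. The neighbours Mx and ORS (0.21, SE 0.23, adjusted p = 0.576) and the lowest pair, DF and DP (0.03, SE 0.23, adjusted p = 0.956), were not called. DP and DF also carried melanocyte transcripts, in the sums given above, and Schwann cell transcripts were summed at 4895 and 3570 in DF against 230 and 475 in Mc. Of the 2 tested Schwann cell markers, myelin basic protein (Mbp) read 23.8 and 22.1 in Mc, and Pmp22 read 177 and 409. The part of melanocyte and Schwann cell transcripts in the DP and DF levels of Erbb3 was not tested.

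The second Erbb3 probe-set, 1452482_at, stayed far below 200. It read 36.2 and 37.7 in DP and 3.1 to 13.7 on the other 8 arrays. In the fit with no filter on signal, DP was above DF by 0.70 (SE 0.11, adjusted p = 0.00652), a contrast in which 9.55% of all probe-sets were called. The 2 Erbb3 probe-sets therefore differed in their order, and at such signals the array gives little precision.

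**Figure D2:**
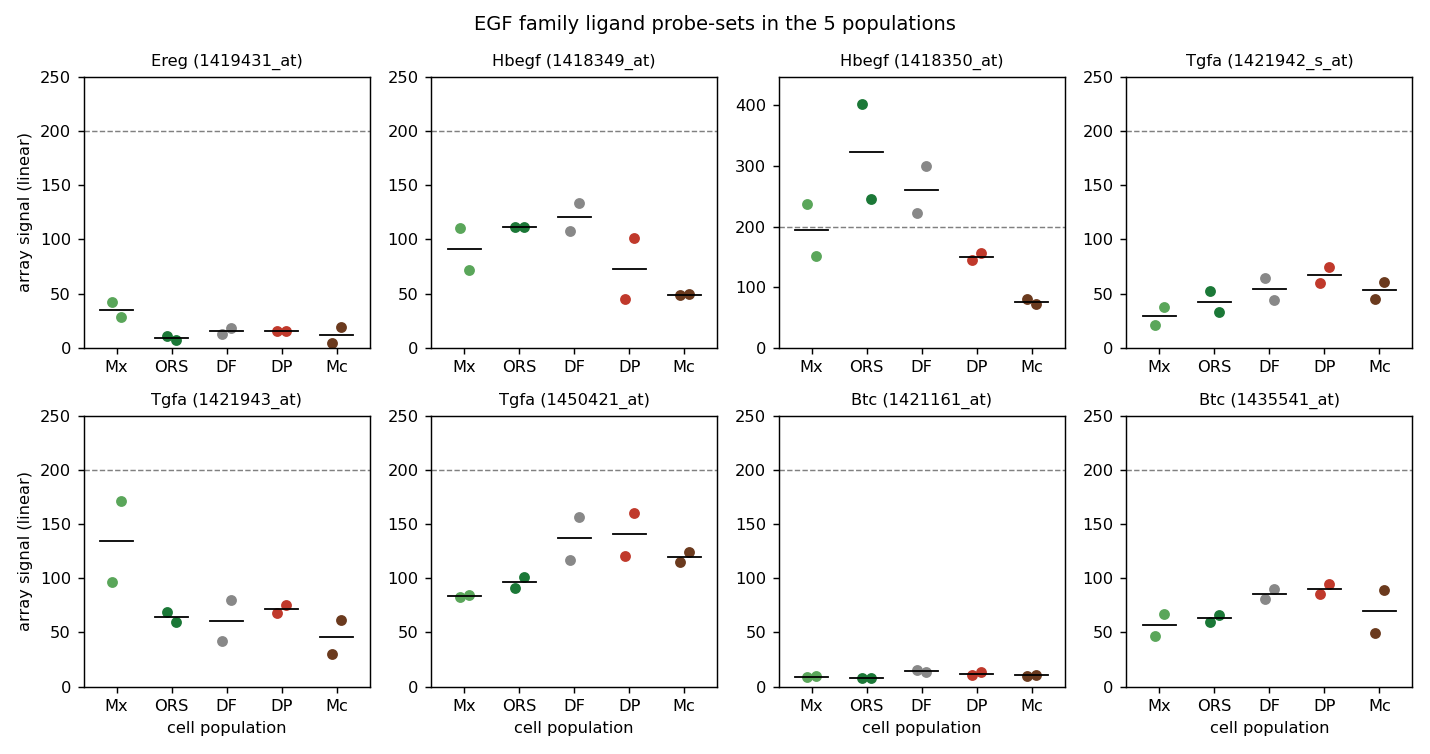
Signal of the 8 ligand probe-sets on a linear scale (vertical axes, each from 0) in the 5 populations (horizontal axes). Points are the 2 arrays of a population, black lines their mean and the dashed line a signal of 200. Of these probe-sets, only Hbegf 1418350_at rises above 200, on 5 arrays, and the other 7 stay below it on all 10.

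Of the ligands with a probe-set, Hbegf was the only one to reach a signal of 200. Hbegf, heparin-binding EGF-like growth factor, is a ligand of Egfr that is released in wounded skin. Hbegf 1418350_at read 402 and 245 in ORS, 222 and 300 in DF, 238 and 152 in Mx, 145 and 156 in DP, and 79.7 and 71.8 in Mc. Both Mc arrays lay below all others, and DF overlapped in range with both ORS and Mx, as Mx did with DP.

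Mc was lower in Hbegf than the mean of the other 4 populations by 1.11 on the log2 scale (a fitted fold of 2.16, SE 0.19, adjusted p = 0.000401), and by 1.09 within chip lot A. ORS was above DP by 0.87 (SE 0.24, adjusted p = 0.0124), where 40.1% of all tested probe-sets were called. No difference between neighbours in its order was called: ORS over DF by 0.24 (SE 0.24, adjusted p = 0.470, with 34.9% called), DF over Mx by 0.36 (SE 0.24, adjusted p = 0.231), Mx over DP by 0.27 (SE 0.24, adjusted p = 0.362, with 58.1% called) and DP over Mc by 0.67 (SE 0.24, adjusted p = 0.0525). The last of these came close to the threshold, and its arrays did not overlap. The low Mc level stood beside low levels of the immediate early genes in Mc, given below.

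The second Hbegf probe-set, 1418349_at, showed a like order at a lower level. It read 111 and 112 in ORS, 107 and 133 in DF, 111 and 72.1 in Mx, 44.6 and 101 in DP, and 48.8 and 49.2 in Mc. One DP array lay at the level of Mc and the other near that of ORS. In the fit with no filter, Mc was lower by 0.56 (SE 0.18, adjusted p = 0.0579), which was not called, beside 22.8% of all probe-sets called.

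Ereg, Tgfa and Btc stayed below 200 on every array with each of their probe-sets. Ereg (epiregulin) read from 4.8 to 42.0, with its 2 highest values, 42.0 and 28, on the Mx arrays. Btc (betacellulin) read from 7.7 to 15.4 with 1421161_at and from 46.4 to 95.1 with 1435541_at. A signal this low gives no firm level, and it does not show that the transcript is absent.

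Tgfa, transforming growth factor alpha, came closest to the bound of the ligands below it. Tgfa 1421943_at read 96.3 and 172 in Mx and 29.7 to 79.7 on the other 8 arrays, so that the value of 172 was the highest of any probe-set of these genes left below 200 on all arrays. The other Tgfa probe-sets did not share this order. Tgfa 1450421_at read 83.1 and 85.0 in Mx, 91 and 101 in ORS, 117 and 156 in DF, 120 and 161 in DP, and 115 and 125 in Mc, and Tgfa 1421942_s_at ran from 20.7 in Mx to 75.0 in DP.

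In the fit with no filter, both of these latter were lower in the epithelial populations than in DF and DP, by 0.42 (SE 0.10, adjusted p = 0.0122) and 0.37 (SE 0.12, adjusted p = 0.0420). Tgfa 1421943_at differed by 0.31 in the other direction (SE 0.18, adjusted p = 0.200), so the 3 Tgfa probe-sets disagreed in sign. In all, 10 of the 16 probe-sets stayed below 200 on every array, 7 of them for ligands and 3 for receptors (Egfr 1451530_at, Egfr 1454313_at and Erbb3 1452482_at). With no filter, 41.9% of all probe-sets differed among the 5 populations.

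**Figure D3:**
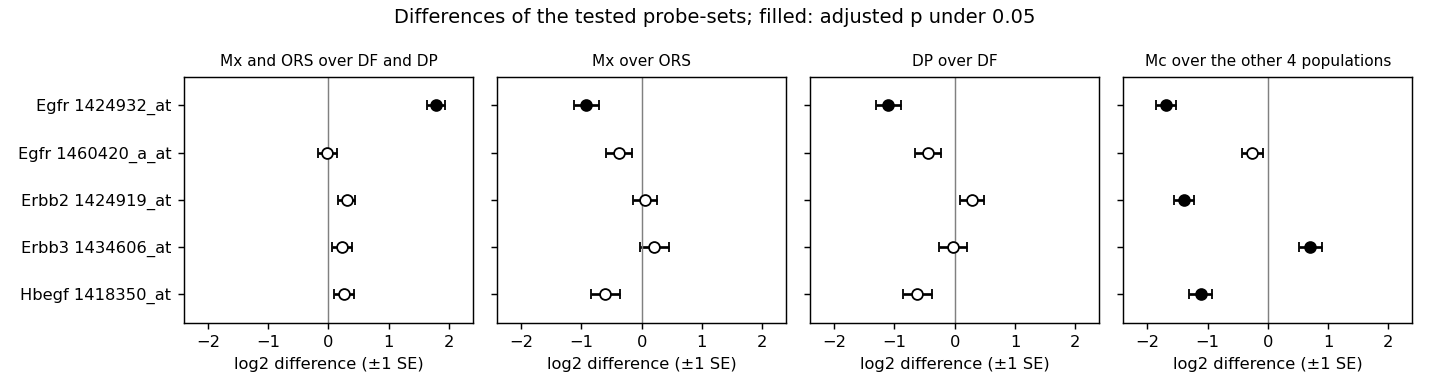
Log2 differences of the 5 tested probe-sets (rows) in 4 comparisons (panels), on the scale of log2(signal + 50). Points are the fitted differences, bars 1 SE to each side and filled points those with an adjusted p under 0.05. Egfr 1424932_at is filled in all 4 panels, Egfr 1460420_a_at in none, and Erbb2, Erbb3 and Hbegf only where Mc is compared with the rest.

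Put side by side, 4 of the 5 tested probe-sets were called where Mc was compared with the rest. Among all tested probe-sets 44.4% were called there, 28.5% lower and 16% higher. Egfr 1424932_at, Erbb2 and Hbegf passed the bound through populations other than Mc, so their lower Mc level is in part a condition of being tested. Egfr 1424932_at was not called between DP and Mc either. In Mc, Egfr 1424932_at was lower by 1.69 (SE 0.16, adjusted p = 3.18e-06), Erbb2 and Hbegf were lower by the values above, and Erbb3 was higher. The median of this contrast over all tested probe-sets was -0.14. Across the 10 pairs of populations, the 5 tested probe-sets gave 20 calls in 50 comparisons (40%), none of them for Egfr 1460420_a_at. Over the same pairs, 38.2% of the comparisons of all tested probe-sets were called, so the share is near that of the array as a whole.

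Of the other members of the family, 5 had a probe-set (Egf, Epgn, Nrg3, Nrg4 and Erbb4) and none passed the bound of 200. Epgn, epigen, a skin ligand of Egfr, read 169 and 69.2 in ORS, 85.8 and 87.1 in Mx, and 24.4 to 61.3 on the other 6 arrays. Erbb4, the remaining receptor of the family, read 0.6 to 3.4 on all 10 arrays. These 5 were thus too dim for the test.

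The enzymes that release the ligands, and their regulators, were mostly lower in the mean of the epithelial populations. Of 8 such genes, all tested, 7 were lower in the mean of Mx and ORS than in that of DF and DP, and none was higher. The median difference was -1.0, beside -0.05 over all tested probe-sets, of which 33.1% were lower and 27.7% higher. Adam9, Adam12, Adam15 and Adam19 passed the bound through no epithelial population, so their lower epithelial level is in part a condition of being tested. Adam10, Rhbdf1 and Timp3 passed in both Mx and ORS and were lower in this mean as well. For Timp3 this came from Mx, as its ORS signal was above that of DF and DP. Adam12 read 4.7 to 47.2 on the 4 epithelial arrays, 462 and 449 in DF, and 144 and 249 in DP (difference -2.17, SE 0.25, adjusted p = 8.19e-06), having passed the bound through DF and Mc. Adam19, which passed the signal bound through DF alone, differed by -1.59 (SE 0.13, adjusted p = 3.91e-07), Adam9 by -1.12 (SE 0.15, adjusted p = 3.07e-05) and Rhbdf1, a partner that carries the sheddase Adam17 to the cell surface, by -1.04 (SE 0.14, adjusted p = 3.17e-05). Adam17 itself, the main sheddase of Tgfa, Areg and Hbegf, was the 1 that was not called.

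Timp3, an inhibitor of Adam17 and other sheddases, split the populations differently. It read 3010 and 3313 in ORS, 2420 and 2543 in DF, 1721 and 1510 in DP, 327 and 274 in Mx, and 94.5 and 122 in Mc. Mx was below ORS by 3.20 (SE 0.18, adjusted p = 6.43e-07) and Mc was below the mean of the rest by 3.23 (SE 0.15, adjusted p = 2.33e-08). Between Mx and ORS, 3 of the 8 genes were lower in Mx and none higher, where 15.4% of all tested probe-sets were lower and 4.04% higher.

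In Mc, the list of sheddases moved both ways. Adam10, a sheddase of Egf and Btc, read 1938 and 2206 in Mc against 494 to 1160 elsewhere, a rise of 1.40 (SE 0.16, adjusted p = 1.91e-05). Adam12 was higher as well, by 1.37 (SE 0.28, adjusted p = 0.00135), and Adam19 and Timp3 were lower. Adam12 read 573.5 and 238 in Mc against 462 and 449 in DF, so the second Mc array lay below both DF arrays. Adam19 and Timp3 did not pass the bound in Mc, so their lower Mc level is in part a condition of being tested. Between DP and DF, 4 of the 8 genes (Adam12, Adam15, Adam19 and Timp3) were lower in DP and none higher, with 11.5% of all tested probe-sets lower and 7.49% higher. That count is unstable: it fell to 1 without the first DF, the second DF or the first DP array, to 2 without the second DP array, to 1 after rescaling and to 2 after quantile normalization. DF also carried the mural and endothelial transcripts given above, whose part in this difference was not tested.

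The feedback inhibitors, which shut the receptors or the Ras-MAP kinase relay down, were in part lower in Mx than in ORS. Of 12 tested, 6 were lower in Mx than in ORS (Dusp6, Lrig1, Rasa1, Socs3, Spred1 and Spry2) and none was higher. The median difference was -0.68 against -0.11 over all tested probe-sets, of which 15.4% were lower and 4.04% higher. Lrig1, Socs3, Spred1 and Spry2 passed the bound through ORS and other populations but not through Mx. Their lower Mx level is thus in part a condition of being tested, whereas Dusp6 and Rasa1 passed in every population. Lrig1, a membrane protein that promotes the breakdown of Erbb receptors, read 1243 and 1310 in ORS, 352 and 249 in DF, 88.8 and 82.7 in DP, 35.4 and 70.3 in Mx, and 36.9 and 16.4 in Mc. Mx was thus below ORS by 3.71 (SE 0.23, adjusted p = 6.43e-07). Lrig1 was highest in ORS as Egfr 1424932_at was, but the 2 differed in Mx, which was second for Egfr and among the lowest for Lrig1.

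**Figure D4:**
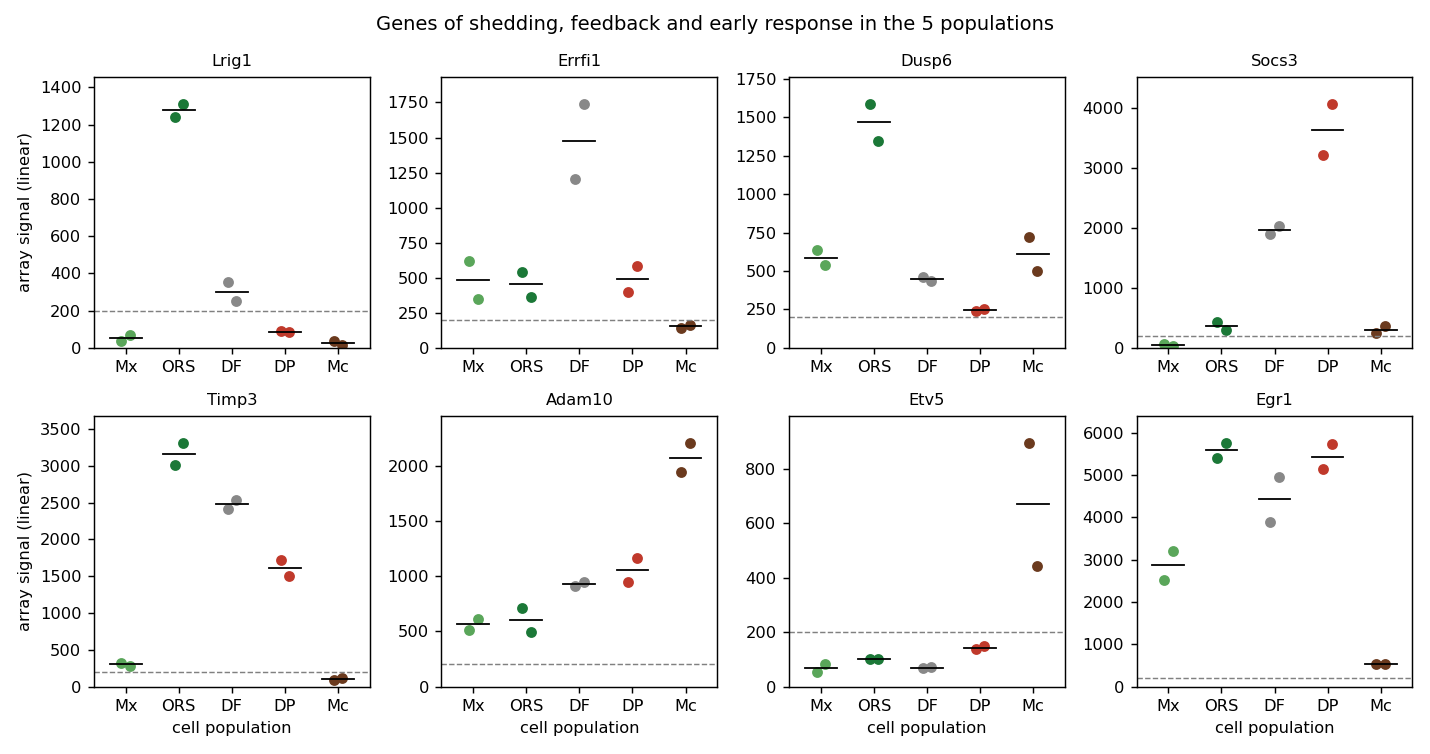
Signal on a linear scale (vertical axes, each from 0) of 8 genes of ligand shedding, feedback and early response in the 5 populations (horizontal axes). Points are the 2 arrays of a population, black lines their mean and the dashed line a signal of 200. Lrig1, Dusp6 and Timp3 are highest in ORS, Errfi1 in DF, Socs3 in DP, and Adam10 and Etv5 in Mc, where Egr1 is lowest.

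Dusp6, a phosphatase that acts on the Erk kinases, read 1587 and 1349 in ORS, 634 and 536 in Mx, 719 and 500 in Mc, 459 and 435 in DF, and 238 and 250 in DP. It was higher in the epithelial populations than in DF and DP by 1.36 (SE 0.14, adjusted p = 3.96e-06), as Lrig1 was, while 5 of the 12 inhibitors were lower there, beside the 27.7% of all tested probe-sets that were higher and the 33.1% that were lower. Quantile normalization, rescaling or leaving out the first Mx array gave 5 higher and 5 lower. Socs3, best known as an inhibitor of cytokine receptors, was the largest of these 5 with a difference of -3.80 (SE 0.17, adjusted p = 2.53e-09), and it read 3207 and 4063 in DP. Errfi1, which binds and inhibits the kinase of Egfr, read 1206 and 1739 in DF, 400 and 587 in DP, 619 and 344 in Mx, 540 and 365 in ORS, and 143 and 164 in Mc.

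In Mc, 6 of the 12 inhibitors were lower than in the rest (Errfi1, Lrig1, Rasa1, Socs3, Spry1 and Spry2) and 1, Rnf41, was higher, where 28.5% of all tested probe-sets were lower and 16% higher. The Rnf41 call was lost without the second Mc array. Errfi1, Lrig1, Spry1 and Spry2 passed the bound through populations other than Mc, so their lower Mc level is in part a condition of being tested. Rasa1 and Socs3 passed in Mc as well. Errfi1 was lower by 1.73 (SE 0.23, adjusted p = 4.56e-05) and Lrig1 by 1.89 (SE 0.18, adjusted p = 2.87e-06). Between DP and DF, Dusp6, Errfi1 and Lrig1 were lower in DP and Socs3 was higher, beside 11.5% lower and 7.49% higher of all tested probe-sets. Socs3 differed by 0.86 (SE 0.24, adjusted p = 0.0250), and this call was lost with a pseudocount of 16 or 1, with no filter, and without either DF array or the second DP array.

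The adaptors and kinases that carry the signal from the receptors were dim in part. Of 15 with a probe-set, 8 were tested, and 5 of these were lower (Akt1, Gab1, Map2k1, Pik3r1 and Shc1) and 1, Nras, was higher in the epithelial populations, with a median of -0.51, where 33.1% of all tested probe-sets were lower and 27.7% higher. The Nras call was lost without the second array of Mx, ORS, DF or DP. Pik3r1, the regulatory subunit of PI3 kinase, read 298 and 406 in DP and 32.7 to 156 on the other 8 arrays. It passed the bound through DP alone, so that its higher DP level is in part a condition of being tested. It was the only 1 of the 8 called between DP and DF (1.05, SE 0.22, adjusted p = 0.00446), a call lost without the second DP array. None of the 8 was called between Mx and ORS. Among all tested probe-sets, 19.0% were called between DP and DF and 19.4% between Mx and ORS, so such small counts say little about this list.

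Transcripts that active Egf receptors are known to induce did not move as 1 group. Of 7 tested, 2 were higher in the epithelial populations (Etv4 and Ccnd1) and 2 lower (Phlda1 and Klf10), close to the 60.8% of all tested probe-sets called in this contrast. With 1 array left out, the calls ran from 1 to 2 in each direction, with 1 higher without the first DF array and 1 lower without either ORS array, the second DF, the second DP or the first Mc array. Etv4, a transcription factor of the Ets family that passed the bound through Mx alone, read 225 and 336 in Mx, 230 and 190 in ORS, 38.5 and 23.7 in DF, and 13.4 and 12.7 in DP, a difference of 2.03 (SE 0.19, adjusted p = 1.62e-06). In Mc, Etv5 and Phlda1 were higher than in the rest and Ccnd1, Ier3 and Klf10 were lower. Klf10 did not pass the bound in Mc, so its lower level there is in part a condition of being tested. Etv5, a close relative of Etv4, read 895 and 442 in Mc against 53.5 to 148 elsewhere, a difference of 2.26 (SE 0.21, adjusted p = 2.24e-06), but it passed the bound through Mc alone and could be tested only for being bright there.

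The immediate early genes, switched on within minutes by growth factors and also by the handling of cells, were lower in Mc than in the mean of the rest. All 12 were tested and all 12 were called lower, with a median of -2.31, beside -0.14 and 28.5% lower over all tested probe-sets. Fosb, Egr2, Atf3, Zfp36 and Btg2 passed the bound through populations other than Mc, so their lower Mc level is in part a condition of being tested. The other 7 reached 200 on both Mc arrays and were lower as well. Egr1 read 528 and 523 in Mc and 2522 to 5762 elsewhere (difference -2.96, SE 0.15, adjusted p = 3.89e-08). Dusp1 was the exception against single populations, with 714 and 540 in Mc above the 420 and 288 of Mx. The summed signal of the 12 was 5729 and 5586 in Mc, 18322 and 16589 in Mx, and 23764 to 30169 in ORS, DF and DP. Mc was stained and sorted apart from the other populations according to the study's methods. Those populations were not all handled alike either. DP and DF were sorted after antibody labelling and magnetic depletion of other cells, whereas Mx and ORS were selected by their GFP and RFP levels. The part of sorting and handling in the low Hbegf, Erbb2 and Egfr signals of Mc was not tested. Its part in the contrasts of Mx and ORS with DF and DP, given above, was not tested either.

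Genes whose pattern was most like that of each receptor or ligand were sought by Pearson's r of the log2 values over the 10 arrays, among all tested probe-sets with 1 gene. For Erbb2 they were Fam117b (r = 0.979), Gja1 (r = 0.972), which encodes the gap junction protein connexin 43, and Efnb1 (r = 0.971), which encodes ephrin B1. For Hbegf they were Sox4 (r = 0.966), Cish (r = 0.947) and Sgk1 (r = 0.942), and for Erbb3 they were Hpcal1 (r = 0.888), Bop1 (r = 0.883) and Pgam1 (r = 0.878). The brightest Egfr probe-set, 1460420_a_at, was most like Anxa2 (r = 0.890), Gask1b (r = 0.877) and Ifi30 (r = 0.869). For Egfr 1424932_at, added after its values were seen, they were Psrc1 (r = 0.995), Igsf9 (r = 0.993) and Prkch (r = 0.991), the last a protein kinase C of differentiating keratinocytes. These are the highest over all tested genes on arrays that share 5 populations, and they are given as a description.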

How the data were processed

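Per the study's methods, the authors amplified RNA of each sorted population in 1 round, hybridised it to MOE430A arrays and computed MAS 5.0 signals. The deposited signal intensities are linear, with 1 value per probe-set. The methods give a target signal of 500, whereas the mean of the deposited values trimmed by 2% at each end was 162 to 196 per array. Here, 64 of 22690 probe-sets were left out as controls. The value log2(signal + 50) was fitted with limma 3.58.1 in R 4.3.3 (population as the only term, 10 arrays, 5 residual degrees of freedom, 7.46 prior ones, median residual SD 0.208) and tested on simulated data. Annotation gave 1 gene to 20380 probe-sets, several to 691 and none to 1555. A gene of a list stands for its brightest probe-set, and up to 4 tested genes per list with the largest absolute difference are named with values. With 2 arrays per population, their number limits the precision. The chip lot from the array experiment files is lot A for both Mx arrays and the first array of each other population, and lot B for the rest. The genes and lists were chosen with earlier results of these data known. Promoters and gene positions are from RefSeq (GRCm38.p6), which lists a window for some of the genes. The build behind the array annotation is not given in the sources used here. The alternatives were other pseudocounts, bounds, scalings, blocks and variance priors, and leaving out each array.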

Additional observations from a re-analysis of the deposited data

How the results depend on the processing

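Of 535 recomputed single values, 505 kept their direction and their side of the threshold, 10 lost a call, 3 gained one and 14 changed sign, none of the latter called, and 3 values within a chip lot, with no test, moved by more than the replicate spread. Counts of calls moved mainly with the signal bound. For a difference anywhere among the 5 populations, 4 probe-sets became 7 at a bound of 100 and 2 at 400, where 9 and 2 were tested. For the epithelial populations over DF and DP, 1 became 4 at a bound of 100, 6 with no filter, 2 after quantile normalization and 2 after rescaling, and 1 to 2 with 1 array left out. For Mx over ORS, 1 became 0 to 1 with 1 array left out. For DP over DF, 1 became 2 with no filter. For Mc over the rest, 4 became 7 at 100 and 2 at 400. Between pairs of populations, 20 calls became 33 at 100, 12 at 400 and 37 with no filter. Of the 16 probe-sets, 10 stayed below 200 and 6 below 100.

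The differences between replicate 1 and 2 correlated between populations with r from -0.046 to 0.34. The highest values were those of Mx with ORS (0.34) and of DF with DP (0.275), and the others ran up to 0.196, so not every pair of populations passed 0.1 and the numbers were not taken to pair the arrays. With the replicate block, 22 calls were made between pairs of populations against 20, and no count moved by over 1.5 times.

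Values near 0 changed sign. The epithelial difference of Egfr 1460420_a_at (-0.02) became 0.10 after quantile normalization, 0.07 after rescaling, 0.04 with a block for chip lot, and ran from -0.10 to 0.07 with 1 array left out, and its Mc difference (-0.26) ran from -0.53 to 0.01. Erbb2 in Mx over ORS (0.05) ran from -0.21 to 0.31 with 1 array left out. Erbb3 in DP over DF (-0.03) became 0.03 after quantile normalization, 0.04 after rescaling, 0.20 within chip lot B, and -0.26 to 0.21 with 1 array left out. The call of Erbb3 among the 5 populations (adjusted p = 0.0313) was lost with a pseudocount of 1 (0.0601), with no filter (0.0765) and without any 1 of 5 arrays (0.0519 to 0.291). Within-lot values were added after seeing the data. In chip lot A, Hbegf in Mx over ORS was -0.91 (main value -0.60).

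Over all alternatives, 5 to 8 sheddase genes were lower in the epithelial populations and none higher, 5 to 9 feedback inhibitors were lower in Mx than in ORS and none higher, and 11 or 12 immediate early genes were lower in Mc. Between DP and DF, the 4 lower sheddase genes became 1 to 4 and the 1 higher feedback inhibitor 0 to 1. In the epithelial contrast, the 2 higher induced transcripts became 1 to 4 and the 2 higher feedback inhibitors 1 to 5. Quantile normalization shifted the median of all tested probe-sets by up to 0.209 (Mx over DF), and by 0.105 for Mc over the rest. The cause of these changes was not tested. Dim probe-sets, 10 of the 16, give no firm levels.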
